A study of Mus musculus with 9 samples.

Results

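The p53 pathway was read in cultured mouse granulosa cells through 32 of its target and feedback genes. They were chosen by name from textbook knowledge of the pathway and matched to the gene annotation of the array. Earlier results of these data were known when they were chosen, so the choice was not blind to the values. Of these, 29 had at least 1 probe set with a single gene symbol, out of 18193 genes measured, while Trp53, Bax and Gdf15 were not analysed here. Where a gene had several probe sets, the brightest on average over the 9 arrays was used. The members fell into feedback (Mdm2, Mdm4 and Ccng1), arrest and stress signalling (7 genes), promotion of apoptosis (12), restraint of apoptosis or modulation of growth (4), and repair with nucleotide supply (3).

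Granulosa cells are the somatic cells that surround and nourish the oocyte. The donors were 20 to 26 days old and had received equine chorionic gonadotrophin (eCG), a hormone that drives follicle growth, 48 h earlier. Mice of more than one genotype were used, with none assigned to a group in the labels. All cells then carried an adenovirus for 24 h, at a multiplicity of infection near 50: a WNT4 virus, a Cre recombinase virus or, as the control, an enhanced GFP virus, with 3 arrays per virus. Cre recombines floxed Ctnnb1, the beta-catenin gene. No group was left without virus, so what adenoviral infection itself does to these genes was not measured. Whether it was the same for the 3 viruses was not tested, and it cannot be told apart from what each virus carries. The replicates are called biological in the labels, which do not say whether they came from separate animals or cultures. The p-values therefore cover only the variation among these arrays, which may be technical.

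p53 is a transcription factor held low by the ligase Mdm2 and by its relative Mdm4. When DNA damage or other stress frees p53 from Mdm2, it switches on genes that halt division, genes that favour cell death and genes that serve DNA repair, and it also switches on Mdm2, which closes a negative feedback loop. In growing follicles, granulosa cell death is the usual route by which a follicle is lost.

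The direct route from p53 to a target is a DNA site made of a pair of adjoining 10-base half-sites. RefSeq promoter windows (GRCm38.p6, 250 bases before to 50 after a start) were held for 24 of the 32 genes, in 33 windows. A full p53 site, allowing at most 2 mismatches in all outside the fixed C and G of each half-site and a spacer of 0 to 13 bases, was present in 5 of the 33 windows. It was present in 4.09% of all 32851 windows. An exact half-site was found in 11 of the 33 windows and in 8.36% of all windows. The half-site consensus reads the same on both strands, so 1 scan covers both. The 4 windows of measured members are shown with a window of Cdkn1a, which encodes p21 and is the best known p53 target. Cdkn1a is not a member. Each window shown held 2 matches to the full site. Capitals mark the half-sites of 1 match per window, that with the fewest mismatches, written 5′ to 3′ on the gene's strand. The other match is not marked.
Ccng1, chr11:40755442-40755501, minus strand: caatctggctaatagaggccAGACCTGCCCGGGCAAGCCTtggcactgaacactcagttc
Rps27l, chr9:66946276-66946335, plus strand: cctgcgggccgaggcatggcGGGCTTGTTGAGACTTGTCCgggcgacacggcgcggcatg
Sesn1, chr10:41887233-41887295, plus strand: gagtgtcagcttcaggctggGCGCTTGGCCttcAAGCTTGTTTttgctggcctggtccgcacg
Gadd45a, chr6:67037418-67037483, minus strand: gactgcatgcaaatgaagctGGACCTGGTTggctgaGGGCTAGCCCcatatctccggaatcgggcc
Cdkn1a, chr17:29090886-29090957, plus strand: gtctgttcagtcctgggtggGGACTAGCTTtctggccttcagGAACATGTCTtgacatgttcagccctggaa
In Ccng1 the half-sites adjoin with no spacer and 1 mismatch, at positions -195 to -176 from the start, and in Rps27l they do so at -117 to -98, also with 1 mismatch. In Sesn1 and Gadd45a the half-sites lie 3 and 6 bases apart with 2 mismatches. In Cdkn1a the marked half-sites lie 12 bases apart with 0 mismatches, and another Cdkn1a window held 0 matches. A match describes letters only, and a window without one says nothing about sites elsewhere in a gene.

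The arrays gave log2 values made with RMA (robust multi-array average, a background correction, normalization and summary per probe set), with array medians of 5.44 to 5.54. Wnt4 did not settle the label of its virus: its brighter probe set read 8.97, 9.89 and 9.16 on the arrays labelled WNT4, 11.25, 10.47 and 10.18 on those labelled Cre, and 9.93, 9.16 and 9.13 on those labelled GFP. Its other probe set read 9.91, 9.62 and 8.36 with WNT4, 10.01, 9.81 and 9.05 with Cre and 9.13, 7.57 and 8.27 with GFP. WNT4 minus GFP was thus -0.07 ± 0.34 on the first and 0.97 ± 0.49 on the second (SE, n = 3 arrays per group), and Cre read highest on average on both. For Ctnnb1, the brightest probe set gave 12.96 to 13.55 with Cre and 12.92 to 13.42 with GFP, overlapping ranges. Whether these probe sets lie in the viral transcript or in the deleted part was not tested. Groups are therefore called by their labels. Granulosa markers were present on every array, with Foxl2, a transcription factor of granulosa identity, at 10.09 to 10.38 on the WNT4-labelled arrays, 10.20 to 10.41 on the Cre-labelled arrays and 10.44 to 10.70 on the GFP-labelled arrays. Foxl2 thus lay below GFP without overlap in both other groups, as did Amh, which averaged 5.99 over the 9 arrays. At an unadjusted p under 0.05 in limma, 2 of 9 granulosa markers (Foxl2 and Esr2) were lower and 1 (Nr5a1) higher in WNT4 against GFP. Of all probe sets 3.91% were lower and 9.12% higher. In Cre against GFP 2 of 9 (Foxl2 and Amh) were lower and 0 higher, where 1.22% of all probe sets were lower and 1.01% higher. Array WNT4 1 had the highest upper quartile of all (8.003, the others 7.68 to 7.87). In bulk RNA, fewer cells of a type and less RNA per cell cannot be told apart.

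On the WNT4-labelled arrays most p53 target genes read higher than on the GFP-labelled arrays, led by Btg2, Plk2 and Sesn2 of the arrest group, Phlda3 and Bbc3 of the death group and Ccng1 and Mdm2 of the feedback group. At an unadjusted p under 0.05 (limma, 3 arrays per group), 17 of 29 members were higher and 0 were lower, where 9.12% of all 45037 probe sets were higher and 3.91% lower. The groups did not overlap, with WNT4 above, at 17 of 29 members, against 9.28% of all probe sets, and 0 lay below, against 5.49%. All 17 were among the 17 at an unadjusted p under 0.05. With 1 probe set per gene, as the members were read, 2269 of 18193 genes lay above without overlap. Of these genes 2290 were higher and 812 lower at an unadjusted p under 0.05. The members' median difference was 0.46 on the log2 scale, and that of all probe sets was -0.0016. Single members did not reach the threshold over the whole table: 0 of 29 had an adjusted p under 0.05, a level that 0.0155% of all probe sets reached, and the lowest was that of Btg2 (0.0842).

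The size of the shift depended on the scaling and on single arrays. After quantile normalization the median was 0.28, with 12 members higher and 0 lower at an unadjusted p under 0.05, against 4.61% of all probe sets higher. Leaving out WNT4 2 brought 6 members past the adjusted threshold (Mdm2, Ccng1, Btg2, Plk2, Trp53inp1 and Aen), when 748 probe sets passed in all. WNT4 1 was the highest of the 9 arrays for 16 of 29 members. The share over all probe sets was not computed, and this array also had the highest upper quartile (8.003). Without WNT4 1, 14 members were higher and 1, Ddb2, lower, the median was 0.44, and 5.32% of all probe sets were higher.

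**Figure D1:**
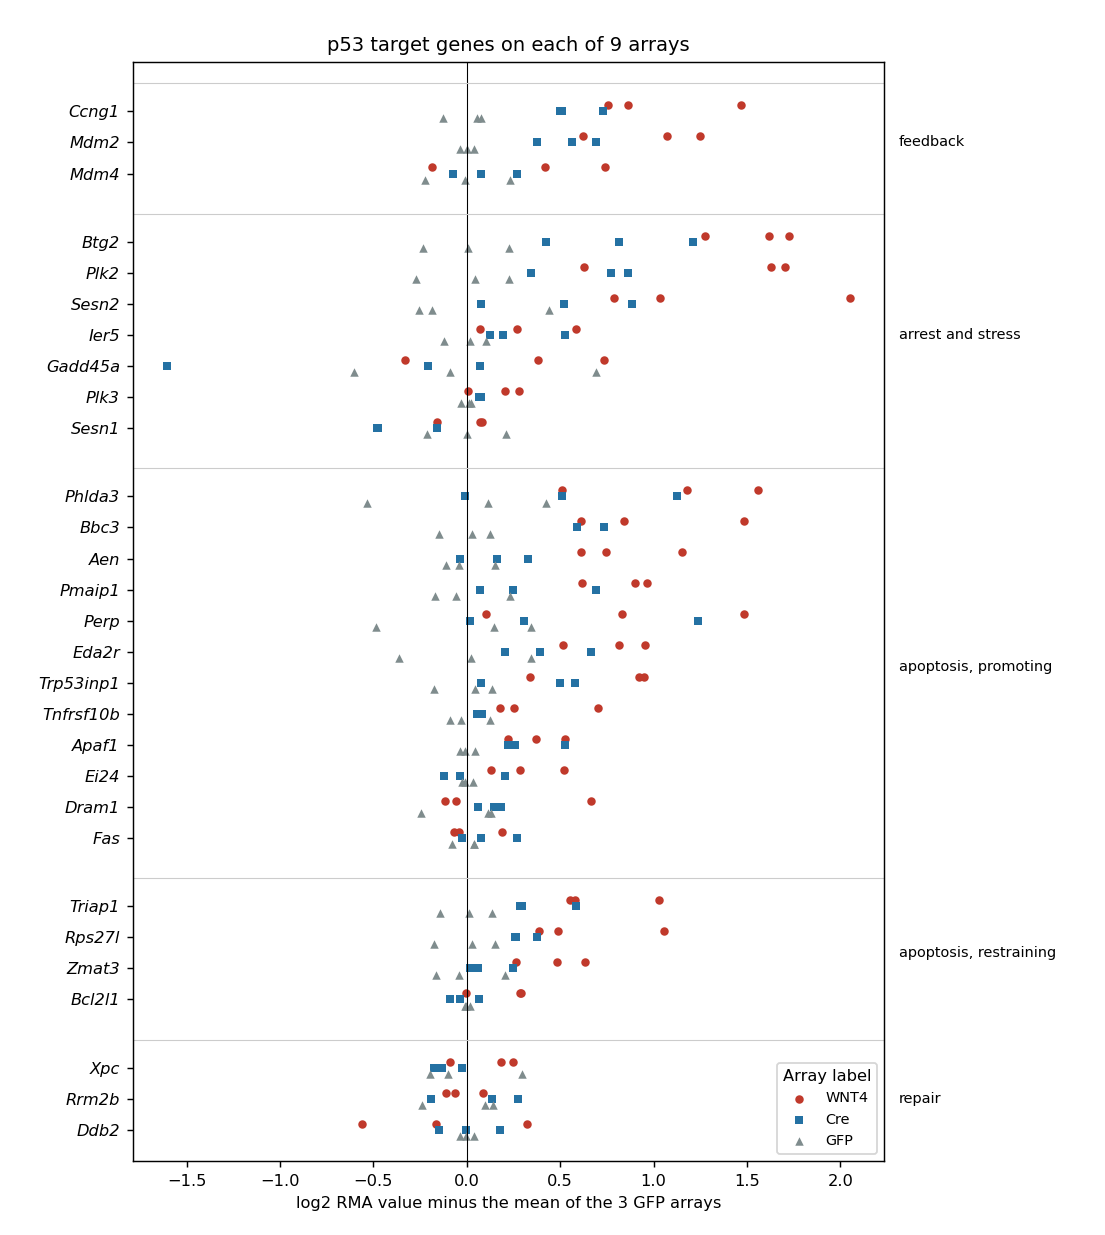
Each row is a member and each point an array: the x axis gives the log2 RMA value minus the mean of the 3 GFP arrays, with circles for WNT4, squares for Cre and triangles for GFP. For 17 of the 29 genes every WNT4 point lies to the right of every GFP point, and the 3 repair genes overlap around 0.

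Feedback genes came first in the pathway's logic. Mdm2 read 11.02, 10.39 and 10.84 on the WNT4-labelled arrays, 10.15, 10.33 and 10.46 on the Cre-labelled arrays and 9.81, 9.73 and 9.77 on the GFP-labelled arrays. Every array of both other viruses stood above the 3 GFP arrays, which lay close together. The difference of WNT4 from GFP was 0.98 ± 0.16 (SE, n = 3 arrays per group, adjusted p = 0.151), or 1.97-fold. A second Mdm2 probe set gave 0.99, and a dim one with a mean of 4.06 gave -0.06.

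Ccng1, which encodes cyclin G1, an atypical cyclin that brings a phosphatase to Mdm2, read 13.60, 12.996 and 12.89 on the WNT4-labelled arrays, 12.63, 12.86 and 12.64 on the Cre-labelled arrays and 12.21, 12.19 and 12.004 on the GFP-labelled arrays. The 3 groups did not overlap: the lowest WNT4 array lay just above the highest Cre array, and the lowest Cre array above the highest GFP array. The WNT4 difference from GFP was 1.03 ± 0.18 (adjusted p = 0.166), with 1.32 and 1.31 on its other 2 probe sets. This is the gene whose promoter window holds the adjoining half-sites shown first.

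Mdm4 read 7.38, 6.46 and 7.07 on the WNT4-labelled arrays, 6.58, 6.91 and 6.72 on the Cre-labelled arrays and 6.42, 6.64 and 6.88 on the GFP-labelled arrays, so all groups overlapped. Its difference of WNT4 from GFP was 0.32 ± 0.22 (adjusted p = 0.588), and its other probe sets ran on both sides of 0, from -0.31 to 0.38.

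In the arrest and stress group the members divided. Btg2, an antiproliferative regulator of transcription and mRNA decay, read 10.30, 9.85 and 10.19 on the WNT4-labelled arrays, 9.002, 9.39 and 9.79 on the Cre-labelled arrays and 8.58, 8.34 and 8.80 on the GFP-labelled arrays. No group overlapped another, and WNT4 differed from GFP by 1.54 ± 0.21, or 2.91-fold. Over the other fits that adjusted p ran from 0.0364 to 0.421. The second Btg2 probe set gave 1.34.

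Plk2, a polo-like kinase induced by stress, read 9.503, 8.502 and 9.58 on the WNT4-labelled arrays, 8.64, 8.22 and 8.74 on the Cre-labelled arrays and 7.60, 8.10 and 7.92 on the GFP-labelled arrays. WNT4 2 lay among the Cre arrays, and all arrays of both viruses lay above GFP. The WNT4 difference from GFP was 1.32 ± 0.28 (adjusted p = 0.174). A second, dim Plk2 probe set went the other way (-0.57), and with the mean of both the difference was 0.37.

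Sesn2, a sestrin that restrains the growth kinase mTORC1 under stress, read 10.58, 9.56 and 9.32 on the WNT4-labelled arrays, 9.41, 9.05 and 8.60 on the Cre-labelled arrays and 8.27, 8.97 and 8.34 on the GFP-labelled arrays. WNT4 1 was more than 1 log2 unit above any other array, and GFP 2 overlapped the Cre arrays. The WNT4 difference from GFP was 1.29 ± 0.35 (adjusted p = 0.224), and 0.91 at the lowest with 1 array left out. Its close relative Sesn1 gave -0.003 ± 0.14 in the same comparison, with its other probe sets at -0.03 to 0.09, although its promoter window also holds a match to the p53 site.

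Ier5, an immediate early gene that acts on the heat shock factor HSF1, read 7.92, 7.73 and 8.24 on the WNT4-labelled arrays, 7.78, 7.85 and 8.19 on the Cre-labelled arrays and 7.54, 7.68 and 7.76 on the GFP-labelled arrays, with WNT4 2 inside the GFP range. Its difference was 0.31 ± 0.16, and its dimmer probe sets gave -0.04 and 0.02. Gadd45a, a growth arrest gene induced by DNA damage, had the widest spread within a group, from 7.97 to 9.64 on the Cre-labelled arrays and from 8.97 to 10.27 on the GFP-labelled arrays, and its WNT4 difference from GFP was 0.26 ± 0.49. Plk3, a relative of Plk2, differed by 0.16 ± 0.09. In this group 3 of 7 members were higher at an unadjusted p under 0.05, against 9.12% of all probe sets, and its median was 0.31.

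Among genes that promote apoptosis, 9 of 12 were higher at an unadjusted p under 0.05, 0 were lower, and the median was 0.75. Over all probe sets 9.12% were higher and 3.91% lower in WNT4 against GFP. Bbc3, which encodes the BH3-only protein PUMA, read 9.02, 8.37 and 8.14 on the WNT4-labelled arrays, 8.26, 8.12 and 8.12 on the Cre-labelled arrays and 7.56, 7.66 and 7.38 on the GFP-labelled arrays. Both other viruses lay wholly above GFP, with WNT4 1 highest and WNT4 3 within the Cre range. The WNT4 difference from GFP was 0.98 ± 0.20 (adjusted p = 0.171), or 1.97-fold.

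Aen, a nuclease that takes part in p53-dependent DNA breakdown, read 11.41, 10.87 and 10.997 on the WNT4-labelled arrays, 10.58, 10.41 and 10.22 on the Cre-labelled arrays and 10.14, 10.40 and 10.21 on the GFP-labelled arrays. Here only the WNT4 arrays stood apart, since Cre and GFP overlapped. The WNT4 difference from GFP was 0.84 ± 0.16 (adjusted p = 0.171), and its 3 other probe sets gave 0.68, 0.74 and 0.53.

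Pmaip1, which encodes the BH3-only protein NOXA, was dim and read 5.12, 5.46 and 5.40 on the WNT4-labelled arrays, 5.19, 4.57 and 4.75 on the Cre-labelled arrays and 4.73, 4.44 and 4.33 on the GFP-labelled arrays. WNT4 lay above GFP throughout, while Cre 1 lay within the WNT4 range. The difference of WNT4 from GFP was 0.83 ± 0.18 (adjusted p = 0.174). Eda2r, a receptor of the tumour necrosis factor family, read 10.05, 9.91 and 9.61 on the WNT4-labelled arrays, 9.48, 9.76 and 9.30 on the Cre-labelled arrays and 9.11, 9.44 and 8.73 on the GFP-labelled arrays. Its WNT4 arrays lay above all GFP arrays, and the Cre arrays overlapped both. Its difference from GFP was 0.76 ± 0.20 (adjusted p = 0.215).

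The other death genes with non-overlapping arrays were Phlda3, which blocks the survival kinase Akt (1.08 ± 0.36), Trp53inp1, a p53 cofactor that also acts in autophagy (0.74 ± 0.20), Tnfrsf10b, a death receptor (0.38 ± 0.14), Apaf1, the core of the apoptosome (0.37 ± 0.11), and Ei24, a membrane protein of the endoplasmic reticulum (0.31 ± 0.12). Of these, Ei24 was at -0.0023 after quantile normalization. The Tnfrsf10b probe set used was dim, with a mean of 5.11, and the second Tnfrsf10b probe set gave -0.02. Perp, a membrane protein of cell junctions, differed by 0.81 ± 0.41 with overlapping arrays. Dram1, a lysosomal protein of autophagy, differed by 0.16 ± 0.20, and Fas, the other death receptor, by 0.03 ± 0.11, both on dim probe sets with means under 6.

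Array 3 was the lowest of its group in all 3 groups for Eda2r, Perp, Ei24 and Phlda3, and the highest for Ier5 and Dram1, 4 and 2 of 29 members. The shares over all probe sets were 7.76% and 9.72%. Leukocyte markers (6 of 7 measured) also stood higher on these arrays, with a mean of 6.93 on WNT4 3, 6.996 on Cre 3 and 6.49 on GFP 3, and 5.65 to 6.02 on the others. Their part in these values was not tested. Between groups, 0 of the 6 markers passed an unadjusted p under 0.05 in any comparison in limma. Such a comparison cannot show a rise that array 3 of every group shares. Without the 3 arrays numbered 3, a fit chosen after seeing the data, 14 of 29 members were higher and 0 lower in WNT4 against GFP, when 8.35% of all probe sets were higher.

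Members that restrain death or modulate growth gave 3 of 4 higher at an unadjusted p under 0.05, against 9.12% of all probe sets, with a median of 0.55. Triap1, a small mitochondrial protein that limits apoptosis, read 8.83, 8.35 and 8.38 on the WNT4-labelled arrays, 8.39, 8.10 and 8.09 on the Cre-labelled arrays and 7.66, 7.81 and 7.94 on the GFP-labelled arrays. Both other viruses lay above GFP, and Cre 1 lay within the WNT4 range. The WNT4 difference from GFP was 0.72 ± 0.15 (adjusted p = 0.174).

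Rps27l, a p53-induced relative of a ribosomal protein and the second gene with adjoining half-sites, read 12.49, 11.92 and 11.82 on the WNT4-labelled arrays, 11.81, 11.69 and 11.69 on the Cre-labelled arrays and 11.46, 11.58 and 11.25 on the GFP-labelled arrays. The 3 groups did not overlap, and WNT4 1 stood highest. WNT4 differed from GFP by 0.64 ± 0.17 (adjusted p = 0.223), with 0.70 and 0.69 on its other probe sets. The probe set used has the x_at suffix, with which the maker marks probes that may also match other sequences, so a share from a near relative is uncertain.

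Zmat3, a zinc finger protein that binds RNA, read 11.01, 10.78 and 11.16 on the WNT4-labelled arrays, 10.54, 10.77 and 10.58 on the Cre-labelled arrays and 10.36, 10.73 and 10.48 on the GFP-labelled arrays, where GFP 2 overlapped Cre but not WNT4. It differed by 0.46 ± 0.13. Bcl2l1, which encodes the survival protein BCL-XL, read 10.16, 10.17 and 9.87 on the WNT4-labelled arrays, 9.79, 9.94 and 9.84 on the Cre-labelled arrays and 9.90, 9.86 and 9.87 on the GFP-labelled arrays. WNT4 3 lay among the GFP arrays, and the difference was 0.19 ± 0.10, or -0.05 after quantile normalization.

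Of the repair genes, 0 of 3 reached an unadjusted p under 0.05 in any comparison in limma with all arrays. Ddb2, the damage sensor of nucleotide excision repair, read 7.35, 6.86 and 6.47 on the WNT4-labelled arrays, 7.03, 7.21 and 6.88 on the Cre-labelled arrays and 7.03, 6.995 and 7.07 on the GFP-labelled arrays. Its WNT4 arrays lay on both sides of GFP, at a difference of -0.14 ± 0.20. Xpc, a partner in the same recognition step, read 8.99, 8.65 and 8.92 on the WNT4-labelled arrays, 8.56, 8.71 and 8.61 on the Cre-labelled arrays and 8.54, 9.03 and 8.64 on the GFP-labelled arrays, with the groups overlapping and a difference of 0.11 ± 0.15.

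Rrm2b, a p53-induced subunit of the enzyme that makes deoxynucleotides, read 9.09, 9.03 and 9.24 on the WNT4-labelled arrays, 8.95, 9.42 and 9.28 on the Cre-labelled arrays and 9.25, 8.91 and 9.29 on the GFP-labelled arrays. The groups overlapped and the difference was -0.03 ± 0.15. With 3 genes in the group, whether repair differs from the other functions was not tested.

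**Figure D2:**
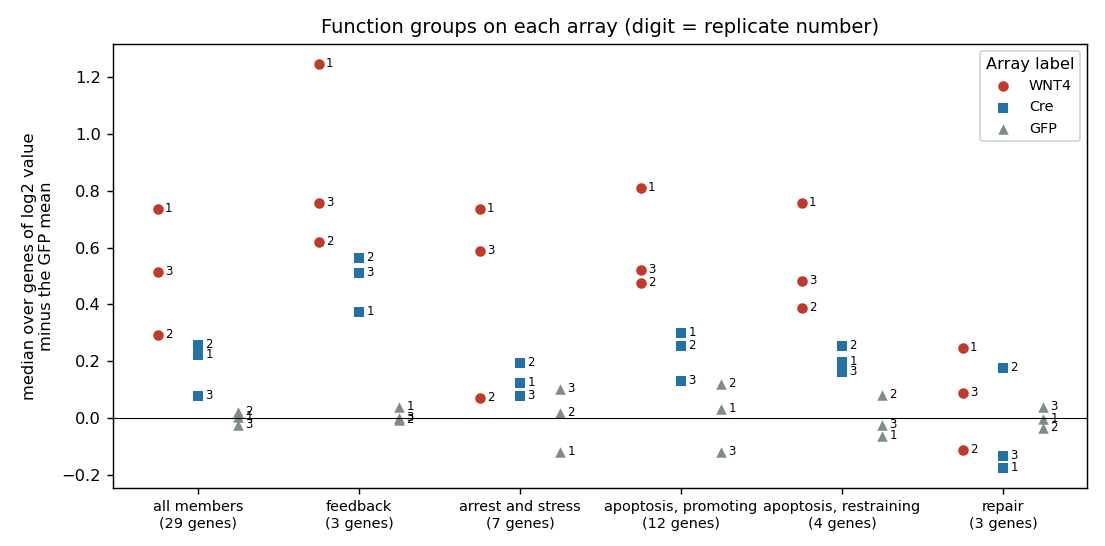
Each point is an array: the y axis gives the median over the genes of a function group of the log2 value minus the GFP mean, and the digit is the replicate number. Feedback genes stand at 0.62 to 1.25 on WNT4, 0.37 to 0.56 on Cre and -0.01 to 0.04 on GFP arrays, while repair genes stand at -0.11 to 0.25, -0.17 to 0.18 and -0.04 to 0.04 on the same arrays.

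Over the 29 members, the median distance from the GFP mean was 0.74 on WNT4 1, 0.29 on WNT4 2 and 0.52 on WNT4 3. On the Cre-labelled arrays 1, 2 and 3 it was 0.22, 0.26 and 0.08. The GFP arrays lay at 0.004, 0.02 and -0.02. Some markers of other cells also stood out on WNT4 1. Theca and stroma markers (7 of 7 measured) averaged 7.57 to 8.84 on the WNT4-labelled arrays, with the top value on WNT4 1, 7.73 to 7.87 on the Cre-labelled arrays and 7.59 to 7.82 on the GFP-labelled arrays. Oocyte markers (5 of 5) averaged 6.22 to 7.63, again highest on WNT4 1, and 6.28 to 7.19 on the Cre-labelled arrays and 6.09 to 6.91 on the GFP-labelled arrays. WNT4 1 was the highest of the 9 arrays for 5 of 7 theca and stroma genes (Cyp17a1, Cyp11a1, Dcn, Lum and Pdgfra) and the lowest for the other 2 (Col1a1 and Acta2). It was the highest for 4 of 5 oocyte genes, 2 of 4 endothelial genes and 1 of 5 epithelial genes. For granulosa genes it was the highest for 4 of 9 and the lowest for 3. The share over all probe sets was not computed. Leukocyte markers averaged 5.65 on WNT4 1, their lowest of all arrays. At the level of groups, 1 of 7 theca and stroma markers and 0 of 5 oocyte markers were higher in WNT4 against GFP at an unadjusted p under 0.05. The 1 was Cyp11a1 (1.21 ± 0.41), which read 12.03 to 14.48 over the 9 arrays, while Cyp17a1 on the same list read 5.20 to 5.86. Whether Cyp11a1 marks theca cells here was not tested. The part of these markers in the members' values was not tested either. Without WNT4 1 the members' median was 0.44 in WNT4 against GFP, with 14 higher and 1 lower (5.32% of all probe sets higher). With all arrays it was 0.46, with 17 and 0 (9.12%). In WNT4 against Cre it was 0.18 without WNT4 1, with 3 higher and 1 lower (2.34%). With all arrays that median was 0.34, with 11 and 0 (5.07%). Leaving out the array does not test the part of these markers.

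Probe sets that were not used to read the members gave another view. Of 30 such probe sets, 14 had a mean of at least 6, and of these 12 differed upwards and 9 did so at an unadjusted p under 0.05 in WNT4 against GFP. Among the 16 dim ones, 8 differed upwards and 2 did so at that level. Probe sets of a gene share its RNA and are not independent. Members with probe sets of opposite sign in this comparison were Mdm2, Mdm4, Plk2, Ier5, Sesn1, Tnfrsf10b, Bcl2l1 and Rrm2b. In a fit of the 18658 probe sets that averaged 6 or more, 16.8% were higher at an unadjusted p under 0.05, against 14 of the 25 members at that level in the same fit.

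**Figure D3:**
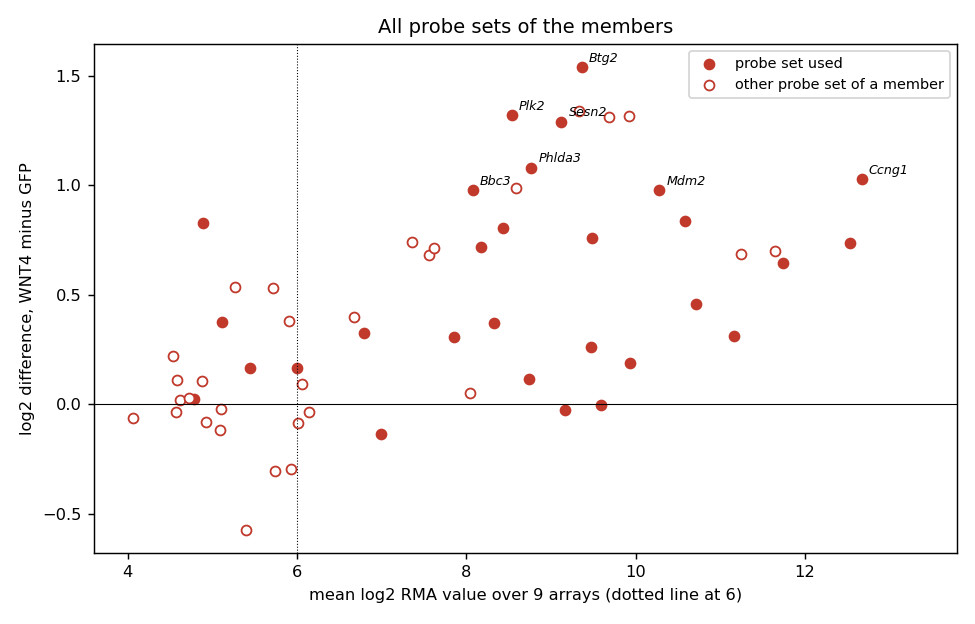
Each point is a probe set of a member, with its mean log2 RMA value over 9 arrays on the x axis and its log2 difference of WNT4 from GFP on the y axis; filled points were used to read the gene. The points left of the dotted line at 6 scatter around 0, with Pmaip1 (0.83) the highest filled point there, and all values above 0.9 lie right of it.

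Cre was compared with GFP, a contrast that holds the Cre protein beside any recombination of Ctnnb1. It uses the same GFP arrays as the WNT4 comparison, so the 2 sets of values are not independent. The members' median difference was 0.28, against -0.02 for all probe sets. At an unadjusted p under 0.05, 7 of 29 members were higher and 1 was lower, where 1.01% of all probe sets were higher, 1.22% lower and 2.23% either. The groups did not overlap at 10 members, all with Cre above, against 2.98% of all probe sets above and 3.04% below. With 1 probe set per gene, 648 of 18193 genes lay above without overlap and 226 were higher at an unadjusted p under 0.05. None of the 29 passed limma's adjusted threshold, which 0% of all probe sets passed.

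Members of 4 of the 5 function groups were among the higher ones. Btg2 differed by 0.82 ± 0.21, Plk2 by 0.66 ± 0.28, Ccng1 by 0.58 ± 0.18 and Mdm2 by 0.54 ± 0.16 (SE, n = 3 arrays per group). Among death genes, Bbc3 differed by 0.64 ± 0.20 and Apaf1 by 0.34 ± 0.11, and Triap1 of the restraining group by 0.39 ± 0.15. These 7 were the members higher at an unadjusted p under 0.05. Plk3 (0.07 ± 0.09), Ier5 (0.28 ± 0.16) and Rps27l (0.30 ± 0.17) also had non-overlapping arrays.

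Sesn1 was the member that read lower on the Cre-labelled arrays, at 9.24, 9.56 and 9.24 against 9.51, 9.72 and 9.93 on the GFP-labelled arrays, with Cre 2 inside the GFP range. Its difference was -0.37 ± 0.14, which did not keep an unadjusted p under 0.05 without Cre 1, Cre 3, GFP 2 or GFP 3, and its other probe sets ran up to 0.23. Gadd45a gave -0.58 ± 0.49, and -0.07 without Cre 1 (7.97). Perp gave 0.52 ± 0.41, and 0.16 without Cre 1, which read 9.23 where the other Cre arrays read 8.30 and 8.01. Without Cre 1 the members' median was 0.17. A mean of each gene's probe sets gave 5 members at an unadjusted p under 0.05, all higher, where 0.873% of all features were higher. An intensity trend in the model also gave 5 (0.875% of all probe sets), as did leaving out the arrays numbered 3, a fit chosen after seeing the data (1.43%).

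**Figure D4:**
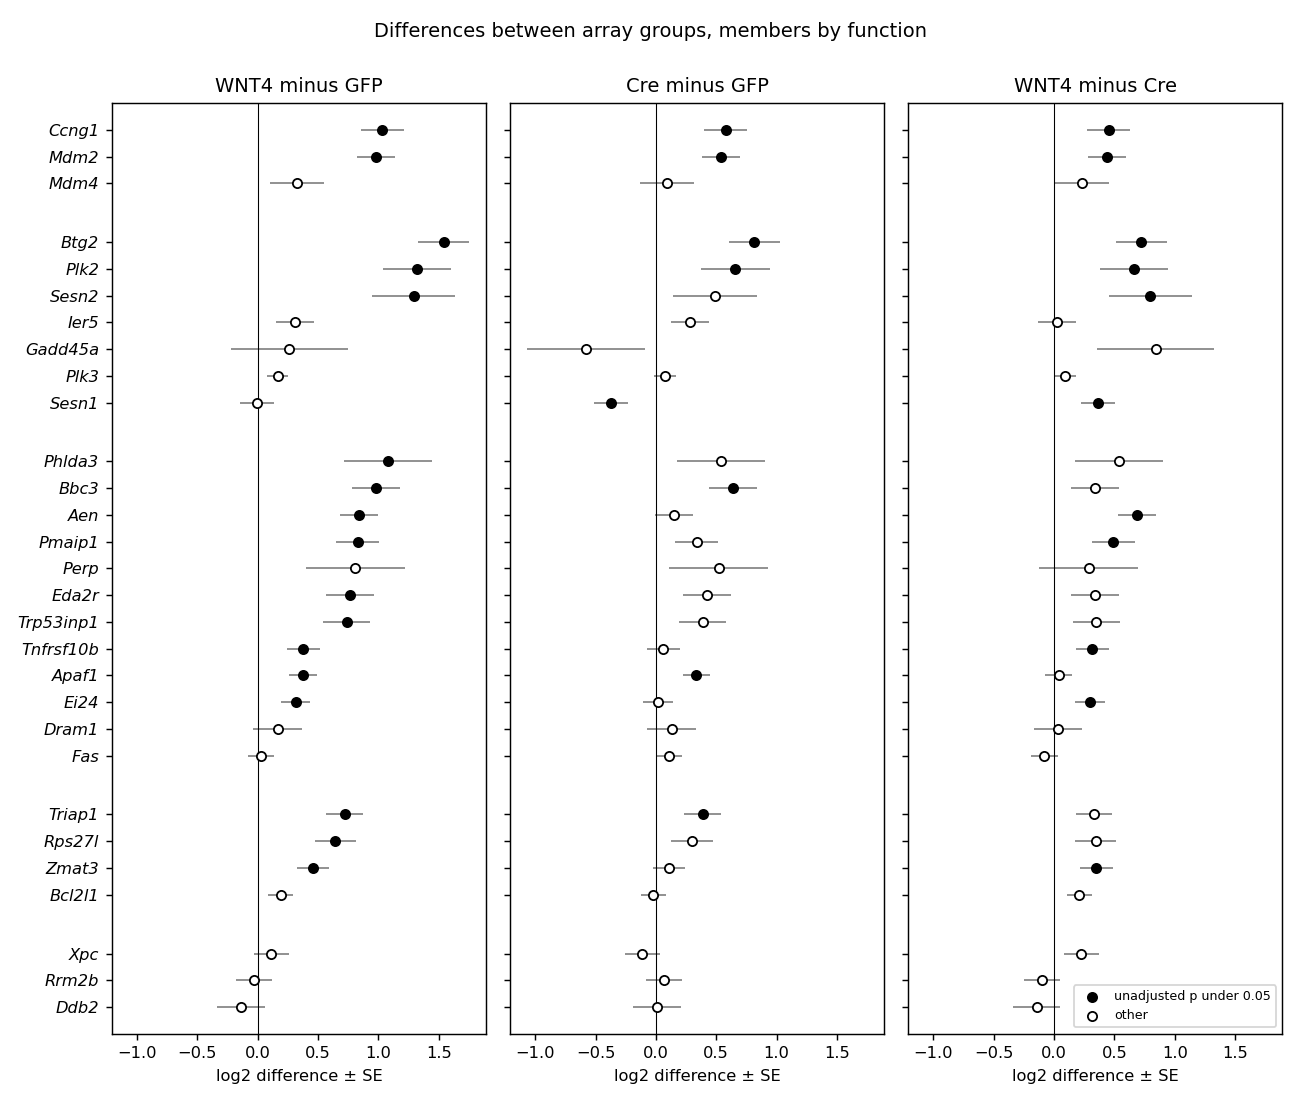
Points give the log2 difference of each member in WNT4 minus GFP, Cre minus GFP and WNT4 minus Cre, with bars of 1 SE and filled points at an unadjusted p under 0.05 (17, 8 and 11 of 29). Genes are ordered by function from feedback at the top to repair at the bottom, whose 9 points are all open.

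WNT4 was also compared with Cre, which sets both other viruses side by side without the control. Members were higher with WNT4 by a median of 0.34, against 0.02 for all probe sets. At an unadjusted p under 0.05, 11 of 29 were higher and 0 lower, where 5.07% of all probe sets were higher, 1.17% lower and 6.23% either. The groups did not overlap, with WNT4 above, at 6 members, against 5.38% of all probe sets, and with WNT4 below at 0, against 2.85%. With 1 probe set per gene, 1191 of 18193 genes lay above without overlap and 1267 were higher at an unadjusted p under 0.05. None of the 29 members passed the adjusted threshold in limma, which 0% of all probe sets passed (lowest adjusted p among members 0.773). The members with the largest differences were Gadd45a (0.84 ± 0.49), Sesn2 (0.80 ± 0.35), Btg2 (0.72 ± 0.21), Aen (0.69 ± 0.16) and Plk2 (0.66 ± 0.28). Of these, Gadd45a did not reach an unadjusted p under 0.05. The 6 members without overlap were Ccng1, Btg2, Tnfrsf10b, Aen, Zmat3 and Rps27l.

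The count of members in this comparison depended on the setting, as did the share of all probe sets that were higher. The count was 3 of 29 after quantile normalization (1.98% of all probe sets higher), with a median of 0.15, and 4 after centring on the 75th percentile (2.46%). It was 4 without WNT4 1 (2.34%), with a median of 0.18, 4 without Cre 3 (3.82%), 5 without Cre 1 (3.03%), and 7 without Cre 2, GFP 1 or GFP 3 (4.49% to 5.19%). Without the arrays numbered 3 it was 4 (2.9%). Without WNT4 1 the 4 held 3 members higher (Btg2, Pmaip1 and Aen) and 1 lower (Ddb2).

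The mean of the WNT4 arrays was above that of Cre, and Cre above GFP, for 22 of 29 members. Over all probe sets 25.2% had that order. Members outside it were Gadd45a, Sesn1, Fas, Ddb2, Xpc, Rrm2b and Bcl2l1, so all 3 repair genes were among them.

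Other genes of the pathway gave the setting. Of 15 other p53 targets measured, 5 were higher and 1 lower in WNT4 against GFP at an unadjusted p under 0.05. Over all probe sets 9.12% were higher and 3.91% lower. Of the 5, Cdkn1a and Polk passed the adjusted threshold, which 0.0155% of all probe sets passed. This list was chosen with earlier results of these data known, so these 2 calls are not independent of that choice. Cdkn1a rose, reading 13.82, 13.36 and 13.64 on the WNT4-labelled arrays, 12.67, 12.83 and 13.10 on the Cre-labelled arrays and 12.26, 12.03 and 11.90 on the GFP-labelled arrays. Its 3 groups did not overlap. Its difference from GFP was 1.55 ± 0.16 with WNT4 (adjusted p = 0.0341) and 0.80 ± 0.16 with Cre (adjusted p = 1). Polk, a polymerase that copies past damaged bases, read 9.55, 9.27 and 9.49 on the WNT4-labelled arrays, 8.60, 8.74 and 8.81 on the Cre-labelled arrays and 8.47, 8.16 and 8.23 on the GFP-labelled arrays. Its groups did not overlap either, and it rose by 1.15 ± 0.12 with WNT4 (adjusted p = 0.0341). Tob1, an antiproliferative relative of Btg2, differed by 0.85 ± 0.19. The others, named after their values were seen, were Ptp4a3 (0.86) and Siva1 (0.45), which were higher, and Thbs1, which was lower (-1.72 ± 0.47). With the replicate number as a block in limma, the adjusted p was 0.0682 for Cdkn1a and 0.0672 for Polk. With 1 array left out, the call of Cdkn1a was lost in 8 of 9 fits and that of Polk in 7 of 9. Over 18 other fits the adjusted p of each ran from 0.0272 to 0.355, at differences of 1.11 to 1.71 for Cdkn1a and 0.71 to 1.24 for Polk.

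The lists around p53 came next. Of 8 kinases and damage sensors, 0 were higher and 1 lower in WNT4 against GFP at an unadjusted p under 0.05, with a median of 0.13: Prkdc, the catalytic subunit of DNA-PK, differed by -0.38, Nbn, a sensor of broken DNA ends, by 0.29 and Chek1, a checkpoint kinase, by 0.53. Among 13 cofactors, family members and ligases, 4 were higher and 0 lower, with a median of 0.21, against the same shares of all probe sets (9.12% and 3.91%). They were Ep300, an acetyltransferase that p53 recruits (0.41, named after its value was seen), Rchy1, a p53-induced ligase of p53 (0.59), Usp7, which removes ubiquitin from p53 and Mdm2 (0.34) and Ppm1d, a p53-induced phosphatase that ends the response (0.40). Against GFP, Cre gave 0 in either list at that level.

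Genes that carry out death and division were read as well. Of 11 genes of the apoptosis machinery 1 was higher, Mcl1, a survival protein (0.42), and 0 were lower, with a median of 0.10, so the count was near the 9.12% of all probe sets. Bid, which is on this list and on that of other targets, differed by 0.46 and Cycs, cytochrome c, by 0.22. Of 11 cell division genes that p21 lowers through the DREAM complex in dividing cells, 0 reached an unadjusted p under 0.05 in limma in any comparison. Over all probe sets 13% reached it in WNT4 against GFP, 2.23% in Cre against GFP and 6.23% in WNT4 against Cre. All 11 read lower on average with WNT4 and with Cre than with the shared GFP arrays, at medians of -0.36 and -0.24, such as Cdk1 (-0.73 with WNT4), Foxm1 (-0.17) and Cdc25c (-0.25). Of all 45037 probe sets, 22682 read lower on average with WNT4 and 24912 with Cre. The list's median on single arrays ran from -0.96 to 0.22 with WNT4, from -0.61 to 0.24 with Cre and from -0.68 to 0.61 with GFP, so the groups overlapped.

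**Figure D5:**
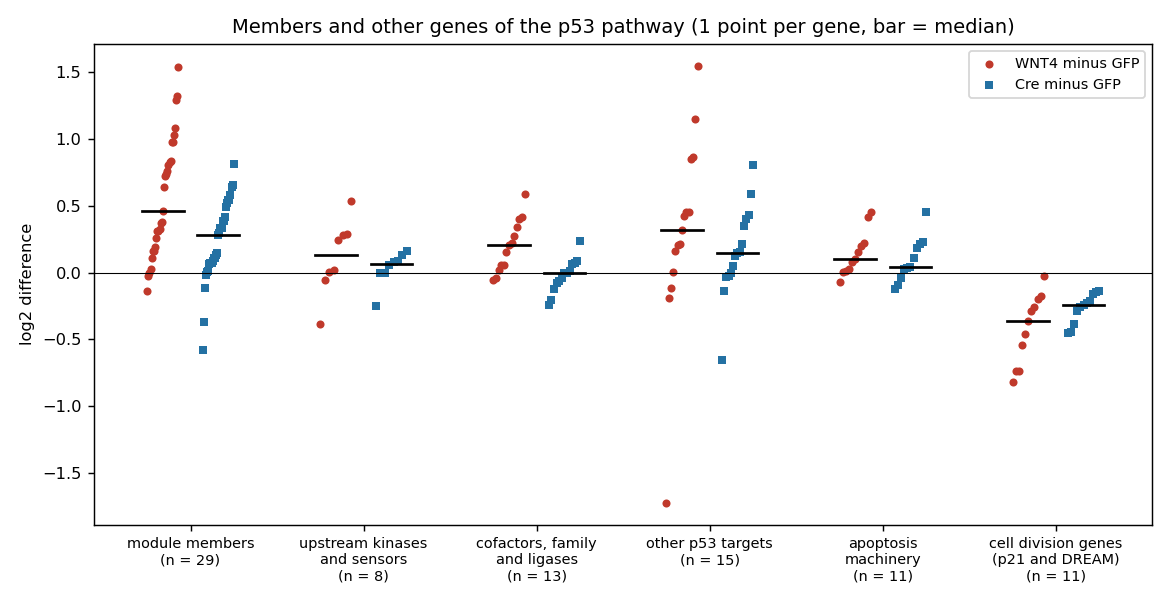
Each point is a gene, with its log2 difference of WNT4 from GFP (circles) or of Cre from GFP (squares) on the y axis, and bars mark the median of each list. The members' medians are 0.46 and 0.28, those of the 8 upstream kinases and sensors 0.13 and 0.07, and all 11 cell division genes lie below 0 in both. Of all 45037 probe sets, 22682 lie below 0 in the first comparison and 24912 in the second.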

How the data were processed

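The authors deposited 1 log2 value per probe set and array. Per the submitters' processing notes, RMA was used. The log2 scale was read from the values, and the RMA version and genome build are not given in the sources used here. RMA already normalizes between arrays. The table held 45101 probe sets, of which 64 controls were left out. In all, 34945 of the 45037 tested had 1 gene symbol, updated by Entrez ID through a RefSeq table (GRCm38.p6) for 34741.

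Each probe set had a linear model over the 9 arrays (limma 3.58.1, R 4.3.3, two-sided, no covariate, 6 residual and 2.8 prior degrees of freedom), with Benjamini-Hochberg adjustment over 45037. An exact permutation test of 3 arrays against 3 cannot go below p = 0.1. The procedure was tested on simulated data with independent noise, which cannot show how it handles shifts that arrays share. Members and lists were chosen with earlier results of these data known. Members named in full had the lowest p of WNT4 against GFP in their function group (4 per larger group, all in smaller ones), and other lists name up to 3 genes by that p. Marker lists of epithelium (5 of 5 measured, WNT4 minus GFP median 0.09), endothelium (4 of 4, 0.05), erythrocytes (2 of 3, -0.05) and granulosa cells (9 of 10, -0.11) were read as well. Promoter windows came from RefSeq, and the p53 site search was written after the values were seen.

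Deviations of same-numbered arrays from their group means correlated at 0.21, 0.24 and 0.77 for numbers 1, 2 and 3 in WNT4 against Cre (r across probe sets). Each was over 0.1, the level taken here as pairing, but WNT4 1 with Cre 2 (0.32) and WNT4 2 with Cre 1 (0.28) were higher than the same-numbered pairs 1 and 2, and no label states a pairing. In WNT4 against GFP (-0.08, 0.01 and 0.35) and Cre against GFP (-0.04, -0.31 and 0.31) the arrays numbered 3 were over that level and the others were not. No pair of arrays shared over 4.53% of equal values. Alternatives were a replicate block, other scalings, a dim filter, an intensity trend, the mean of probe sets, the arrays of each pair alone and leaving out each array. The number of arrays limits the precision.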

Additional observations from a re-analysis of the deposited data

How the results depend on the processing

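No member passed the adjusted threshold in the fit of all arrays, so directions rest on the spread of 3 arrays a group. For WNT4 against GFP the members' median was 0.46, and it was 0.28 after quantile normalization, 0.31 with arrays centred on their 75th percentile (all probe sets then had a median of -0.15), and 0.64 for members with a mean of at least 6 (all such probe sets had a median of 0.16). Centring on the 75th percentile brought 1 member past the adjusted threshold, Btg2. Leaving out each array in turn gave medians of 0.38 to 0.58, 14 to 19 members at an unadjusted p under 0.05 and 0 to 6 past the adjusted one. The share of higher values among all probe sets at an unadjusted p under 0.05 was 70%, 48% after quantile normalization and 30.1% after centring on the 75th percentile, while no member was lower at that level in any of these fits. For Cre against GFP 5 members reached an unadjusted p under 0.05 with an intensity trend, with the mean of all probe sets and without the arrays numbered 3, and leaving out each array gave 6 to 9, with medians of 0.17 to 0.29. For WNT4 against Cre the count was 6 with the arrays of both groups alone, 3 after quantile normalization (median 0.15), 4 after centring on the 75th percentile, 7 with the mean of all probe sets and 4 without the arrays numbered 3, and leaving out each array gave 4 to 12, with medians of 0.18 to 0.42. With the replicate number as a block, 19 members reached an unadjusted p under 0.05 in WNT4 against GFP, 12 in Cre against GFP and 12 in WNT4 against Cre, none past the adjusted threshold, and the shares of all probe sets that were higher were larger too (10.7%, 1.75% and 5.91%, against 9.12%, 1.01% and 5.07% without the block). Under this block Cdkn1a (adjusted p = 0.0682) and Polk (adjusted p = 0.0672) lost their calls in limma in WNT4 against GFP. The causes were not tested.

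Some differences that changed sign were not near 0 with all arrays. Ei24, 1 of the 17 members higher in WNT4 against GFP, stood at 0.31 there (limma, unadjusted p = 0.0327). Perp stood at 0.29 in WNT4 against Cre and Gadd45a at 0.26 in WNT4 against GFP. The differences that changed sign under some settings had an unadjusted p above 0.05 in each such fit. After quantile normalization they were, in WNT4 against GFP, Ei24 (-0.00234), Bcl2l1 (-0.0495), Xpc (-0.0778) and Cycs (-0.17); in Cre against GFP, Ei24 (-0.0517) and Ddb2 (-0.0403); in WNT4 against Cre, Ier5 (-0.0819) and Apaf1 (-0.0925). With arrays centred on the median they were, in WNT4 against GFP, Sesn1 (0.0403) and Rrm2b (0.0152); in Cre against GFP, Bcl2l1 (0.0109). With arrays centred on the 75th percentile they were, in WNT4 against GFP, Fas (-0.13) and Xpc (-0.0388); in Cre against GFP, Ei24 (-0.0327) and Ddb2 (-0.0408); in WNT4 against Cre, Plk3 (-0.0127), Ier5 (-0.0767), Apaf1 (-0.0657) and Dram1 (-0.0695). With the mean of all probe sets they were, in WNT4 against GFP, Sesn1 (0.0261) and Rrm2b (0.0829); in Cre against GFP, Mdm4 (-0.038) and Bcl2l1 (0.0335); in WNT4 against Cre, Ier5 (-0.038), Bcl2l1 (-0.0105) and Rrm2b (0.0244). Without the arrays numbered 3 they were, in WNT4 against GFP, Sesn1 (0.0667), Fas (-0.0343), Dram1 (-0.0219) and Ddb2 (0.0957); in WNT4 against Cre, Apaf1 (-0.0783) and Dram1 (-0.19). Leaving out 1 array, WNT4 against GFP ran from -0.15 to 0.0428 for Rrm2b, from -0.0394 to 0.61 for Gadd45a, from -0.0543 to 0.0724 for Fas, from -0.11 to 0.10 for Sesn1, from -0.0554 to 0.39 for Cycs, from -0.0857 to 0.30 for Dram1 and from -0.36 to 0.0767 for Ddb2. Leaving out 1 array, Cre against GFP ran from -0.0216 to 0.21 for Mdm4, from -0.0761 to 0.0864 for Ddb2, from -0.21 to 0.0367 for Xpc, from -0.0506 to 0.20 for Rrm2b, from -0.0633 to 0.0141 for Bcl2l1 and from -0.0779 to 0.0835 for Ei24. Leaving out 1 array, WNT4 against Cre ran from -0.11 to 0.15 for Ier5, from -0.039 to 0.13 for Apaf1, from -0.16 to 0.00104 for Fas, from -0.22 to 0.17 for Dram1, from -0.23 to 0.00204 for Rrm2b, from -0.0536 to 0.65 for Perp and from -0.37 to 0.069 for Ddb2.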
